A study of Mus musculus with 6 samples.

Results

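The nuclear genes of respiratory complexes I, II, III and V were examined in the stromal vascular fraction (SVF) of gonadal white adipose tissue (gWAT), the mixture of vascular, immune and progenitor cells that collagenase digestion separates from the floating adipocytes. Members were the genes whose symbol begins with Nduf, Uqcr or Atp5, together with Sdha, Sdhb, Sdhc and Sdhd, read from array rows annotated with exactly 1 symbol, pseudogenes left out. This gave 70 of the 22180 genes tested. They comprised 32 subunits of complex I, 4 of complex II, 7 of complex III and 17 of complex V, 8 assembly factors of complex I, and Ndufa4 with its paralog Ndufa4l2. RNA came from wild-type C57Bl/6 mice aged 8 weeks by their labels, as 3 biological replicates given vehicle and 3 given CL. CL is the β3-adrenoceptor agonist CL316243, given at 1 mg per kg in 0.1 ml intraperitoneally once a day for 3 days. No other allele or agent distinguished the groups, and each replicate gave 1 Affymetrix Mouse Gene 2.0 ST array. The sample titles and the paper do not say whether a replicate was 1 mouse or a pool. Values are log2 levels, so a difference of 1 is a doubling, and a log2 fold change is the CL mean minus the vehicle mean.

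Complexes I and II pass electrons from NADH and succinate to ubiquinone, complex III passes them on to cytochrome c, and complex V, the ATP synthase, uses the resulting proton gradient to make ATP. Complex II is also the succinate dehydrogenase of the citric acid cycle. The genes below are nuclear, whereas further subunits of complexes I, III and V are encoded in mitochondrial DNA and were not analysed here. In fat, β3-adrenergic stimulation is known for raising mitochondrial content as white adipocytes take on a beige form, in which uncoupling protein 1 lets protons return without making ATP.

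Promoter sequence was set beside the values because respiratory genes are known to share promoter motifs, above all that of nuclear respiratory factor 1. The RefSeq windows (build GRCm38.p6) ran from 250 bases before to 30 bases after each transcription start. A window was found for 59 of the 70 members, 64 windows in all, and 32851 windows of all genes served as the comparison. The core of the nuclear respiratory factor motif, CGCANGCG, read on both strands, was present in 26 member windows (40.6%) against 7.8% of all windows. CCGGAAG, the core of ETS factors including GABPA, was present in 16 (25.0%) against 8.4%. AAGATGGC, the YY1 motif, was present in 7.8% against 2.3%, and the CREB motif TGACGTCA in 4.7% against 1.7%. The oestrogen-related receptor motif AAGGTCA was present in 6.2% against 4.5%, and the GC box GGGCGG in 43.8% against 34.7%. These are matches of letters and not measured binding. Shown here are the windows of Sdha and Uqcrc1, the members of complexes II and III with the smallest p-values, and of Atp5k, the structural subunit whose CL values all lay below its vehicle values. Capitals mark the matches to CGCANGCG, which number 3 in Sdha, and in Atp5k also those to CCGGAAG, there on the opposite strand, and to AAGGTCA. The windows lie at chr13:74350211-74350490 on the minus strand (Sdha), chr9:108936398-108936677 on the plus strand (Uqcrc1) and chr5:108434370-108434649 on the minus strand (Atp5k), and each is written 5′ to 3′ along its gene.
Sdha: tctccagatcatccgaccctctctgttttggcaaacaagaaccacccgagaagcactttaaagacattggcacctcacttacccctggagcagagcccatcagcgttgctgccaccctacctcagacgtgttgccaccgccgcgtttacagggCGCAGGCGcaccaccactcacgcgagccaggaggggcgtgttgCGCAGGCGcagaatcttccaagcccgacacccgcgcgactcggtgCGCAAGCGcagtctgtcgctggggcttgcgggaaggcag
Uqcrc1: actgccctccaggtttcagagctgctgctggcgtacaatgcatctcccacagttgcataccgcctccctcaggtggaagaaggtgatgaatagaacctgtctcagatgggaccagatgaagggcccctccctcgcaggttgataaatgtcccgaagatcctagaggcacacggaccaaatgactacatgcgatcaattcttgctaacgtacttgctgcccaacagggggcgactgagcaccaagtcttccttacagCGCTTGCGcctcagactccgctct
Atp5k: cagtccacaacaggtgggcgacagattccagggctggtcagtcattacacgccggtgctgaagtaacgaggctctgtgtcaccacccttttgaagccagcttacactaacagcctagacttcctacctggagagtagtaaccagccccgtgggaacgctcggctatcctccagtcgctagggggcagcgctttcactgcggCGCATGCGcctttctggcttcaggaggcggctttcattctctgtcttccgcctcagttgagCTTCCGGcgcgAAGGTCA
Ndufv1 had the smallest p-value of the complex I members with a window, and Atp5d that of complex V. Each had a window with no match to any of the motifs searched, although another of the 2 windows of Atp5d matched CGCANGCG.

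CL treatment went with slightly higher levels of most respiratory genes, but no single member passed the test. The mean was higher with CL for 58 of the 70 members (82.9%) and lower for 12, where 50.4% of all genes had a higher mean. The median log2 fold change was 0.22, a 1.16-fold difference, against a median of 0.00 over all genes tested. With limma and adjustment over all genes, 0 members had an adjusted p under 0.05, and members' adjusted p-values ran from 0.096 to 0.995. Over all genes, 72 passed (0.325%). At an unadjusted p under 0.05, 18 members (25.7%) were higher with CL and 0 lower, where the shares over all genes were 9.40% and 5.38%. All 3 CL values exceeded all 3 vehicle values for 20 members (28.6%) against 11.2% of all genes, and lay below them for 2 members (2.86%) against 8.72%. Respiratory probe sets are bright, and brighter probe sets were more often higher with CL. Among the 11090 genes above the median level, which included 67 members, 16.5% had an unadjusted p under 0.05 and were higher, 18.5% were higher without overlap and 7.72% lower without overlap, and their median log2 fold change was 0.09. Against the 1560 genes at a level of 8 or more, a limit chosen after the values were seen, the excess was smaller. Of these genes 20.1% had an unadjusted p under 0.05 and were higher, 25.5% were higher without overlap and 11.0% lower without overlap, where of the 36 members at such levels 10 (27.8%), 10 (27.8%) and 1 (2.78%) were. The share higher without overlap at these levels was thus close to that of other bright genes. The median log2 fold change there was 0.16 for the members and 0.09 for all genes. A higher CL mean was found for 77.8% of these members and 62.1% of these genes, and for 62.2% of genes above the median level. With 3 arrays per group, the smallest two-sided p that exact permutation of a single value can reach is 0.10. In a bulk fraction, fewer cells of a type and less RNA per cell cannot be told apart.

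The array means followed the same order. Averaged over the 70 members, the level was 8.00, 7.90 and 7.84 on the vehicle arrays and 8.19, 8.16 and 8.04 on the CL arrays, so the groups did not overlap, although the highest vehicle and the lowest CL array were close. CL replicate 1 held the highest value of 26 members and CL replicate 2 of 19, while vehicle replicate 3 held the lowest value of 30 and vehicle replicate 2 of 19. Tests were made gene by gene only, since the members are measured on the same arrays and are not replicates.

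**Figure D1:**
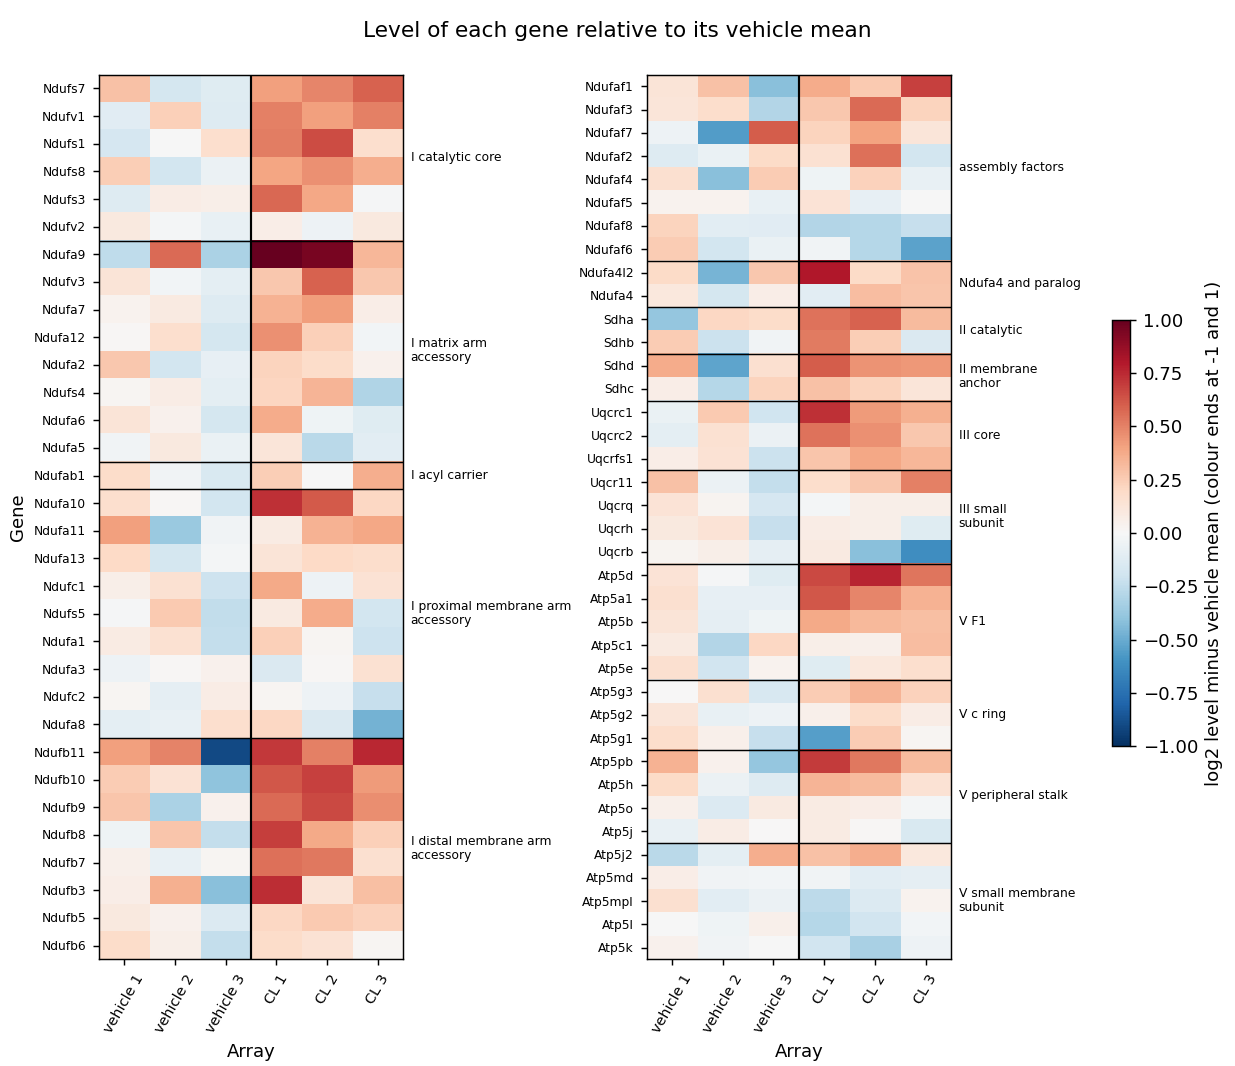
Level of each of the 70 members on each of the 6 arrays, shown as colour for the log2 level minus that gene's vehicle mean, with genes grouped by complex and role and a line between the 3 vehicle and 3 CL arrays. Red dominates the CL columns for the catalytic core of complex I, the distal arm, complex II, the core of complex III and part of F1, whereas the small membrane subunits of complex V are mostly pale or blue.

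The medians of the log2 fold changes were 0.25 for complex I, 0.35 for complex II, 0.32 for complex III, 0.10 for complex V and 0.11 for the complex I assembly factors. Mean levels of complexes I, II, III and V did not overlap between groups, and those of the assembly factors did. The highest vehicle and lowest CL arrays were close, at 8.00 and 8.07 in complex I and 7.71 and 7.76 in complex II. They were 8.06 and 8.07 in complex III and 8.78 and 8.81 in complex V. Within complex I the median was 0.42 for the 6 catalytic core subunits and 0.42 for the 8 accessory subunits of the distal membrane arm, against 0.19 for the 8 of the matrix arm and 0.09 for the 9 of the proximal membrane arm. With each array left out in turn, the core ran from 0.36 to 0.45, the distal arm from 0.26 (without vehicle replicate 3) to 0.54, the matrix arm from 0.11 (without CL replicate 1) to 0.31 (without CL replicate 3), and the proximal arm from 0.016 (without CL replicate 2) to 0.16 (without CL replicate 3), with 0.029 without vehicle replicate 3. No difference between these groups of subunits was tested. Within complex III it was 0.42 for the 3 core subunits and 0.02 for the 4 small ones, the latter turning to −0.07 after quantile normalization and −0.09 after cyclic loess. Within complex V it was 0.33 for the 5 subunits of F1, the catalytic head, and −0.12 for the 5 small membrane subunits.

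**Figure D2:**
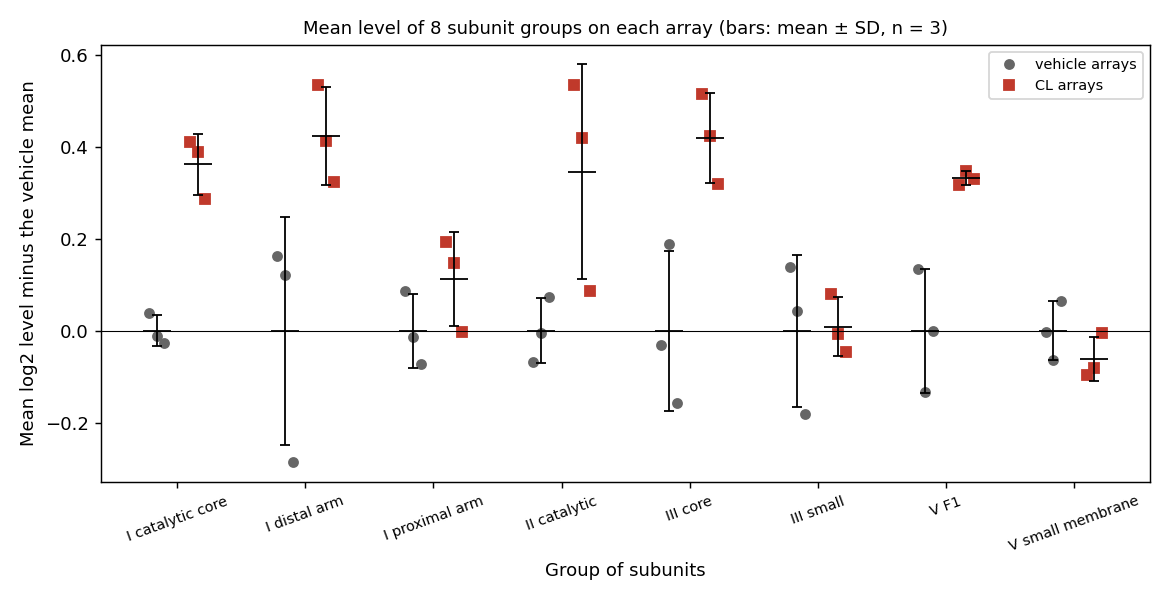
Mean log2 level of 8 groups of subunits on each array, less the group's vehicle mean, with 1 circle for each vehicle array and 1 square for each CL array, and bars for the mean ± SD (n = 3 arrays). CL arrays lie above all vehicle arrays for the catalytic core and distal arm of complex I, complex II catalytic subunits, complex III core and F1. For complex II catalytic subunits the gap is narrow, with mean levels of 7.52 (lowest CL) and 7.51 (highest vehicle). The groups overlap for the proximal arm, the small complex III subunits and the small membrane subunits of complex V.

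Complex I, the NADH dehydrogenase, had 29 of 32 subunits with a higher CL mean. At an unadjusted p under 0.05, 11 of the 32 (34.4%) were higher, against 9.40% of all genes and 16.5% of those above the median level. The core subunits, which are conserved from bacteria and hold the flavin and iron-sulphur clusters, averaged 7.04, 6.99 and 6.97 on the vehicle arrays and 7.41, 7.39 and 7.28 on the CL arrays. Ndufv1, which binds the flavin that takes electrons from NADH, had levels of 6.94, 7.29 and 6.92 with vehicle and 7.56, 7.46 and 7.56 with CL. Its log2 fold change was 0.47 ± 0.15 (SE, n = 3 per group; limma adjusted p = 0.202), and its groups did not overlap. Ndufs7, an iron-sulphur subunit near the ubiquinone site, had 7.85, 7.39 and 7.44 against 7.97, 8.05 and 8.15, also without overlap, with a log2 fold change of 0.50 ± 0.16. Ndufs8, another iron-sulphur subunit, went from 8.21, 7.79 and 7.91 to 8.37, 8.43 and 8.33, a log2 fold change of 0.41 ± 0.15. Ndufs1, the largest subunit, which carries further clusters, had 5.89, 6.05 and 6.23 against 6.57, 6.71 and 6.22, so that CL replicate 3 lay within the vehicle range. Its log2 fold change was 0.44 ± 0.17. Limma adjusted p-values of these 3 genes were 0.213, 0.273 and 0.284. The other core subunits analysed here, Ndufs3 and Ndufv2, had log2 fold changes of 0.32 ± 0.18 and 0.04 ± 0.13 with overlapping groups.

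Accessory subunits surround this core and are known for its assembly and stability. In the matrix arm, Ndufa9, which sits near the ubiquinone site, had the largest log2 fold change of all members, 0.76 ± 0.27 (limma adjusted p = 0.244). Its levels were 6.83, 7.66 and 6.78 with vehicle and 8.08, 8.04 and 7.42 with CL, and vehicle replicate 2 lay above CL replicate 3. Ndufv3, of the flavin-binding module, had 7.08, 6.92 and 6.85 against 7.22, 7.54 and 7.22, a log2 fold change of 0.38 ± 0.15. Of the remaining matrix arm subunits none had an unadjusted p under 0.05, and Ndufa5 had a lower CL mean, by a log2 fold change of −0.09 ± 0.15. Ndufab1, the mitochondrial acyl carrier protein shared with fatty acid synthesis, had a log2 fold change of 0.20 ± 0.16 with overlapping groups.

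The distal arm accessory subunits, all named Ndufb, had a higher CL mean in 8 of 8 cases and did not overlap between groups in 5 (62.5%). Of all genes 11.2% were higher without overlap, and of those above the median level 18.5%. Ndufb9 had 9.43, 8.83 and 9.19 with vehicle and 9.72, 9.81 and 9.61 with CL (log2 fold change 0.56 ± 0.18; limma adjusted p = 0.19). Ndufb10 had 8.80, 8.69 and 8.14 against 9.16, 9.23 and 8.97, a log2 fold change of 0.58 ± 0.19. Ndufb7 had 8.75, 8.62 and 8.71 against 9.25, 9.22 and 8.85, a log2 fold change of 0.41 ± 0.15. These 3 genes had no overlap between groups, while Ndufb8 had 7.28, 7.59 and 7.09 against 8.01, 7.70 and 7.56 with 1 CL array inside the vehicle range. For Ndufb11 the log2 fold change of 0.65 ± 0.33 rested largely on vehicle replicate 3. Its levels were 6.55, 6.64 and 5.24 with vehicle and 6.86, 6.65 and 6.90 with CL, and the second vehicle array stood only just below the second CL array. Ndufb3 (0.39), Ndufb5 (0.23) and Ndufb6 (0.12) made up the rest of the log2 fold changes, and only Ndufb5 had groups apart.

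The proximal arm accessory subunits lay closer to their vehicle levels. Ndufa10, whose fold resembles that of a nucleoside kinase, was the exception, at 7.74, 7.58 and 7.39 with vehicle and 8.30, 8.18 and 7.78 with CL (log2 fold change 0.52 ± 0.18; limma adjusted p = 0.228). Ndufa3 had 10.51, 10.57 and 10.60 against 10.41, 10.57 and 10.72, and Ndufa13, also known as GRIM-19, had 10.70, 10.32 and 10.48 against 10.63, 10.70 and 10.67. Their log2 fold changes were 0.01 ± 0.14 and 0.17 ± 0.15. Ndufa11 had a log2 fold change of 0.27 ± 0.21, with vehicle replicate 1 the highest of its 6 values at 10.55. Ndufa8, at −0.14 ± 0.19, had the lowest log2 fold change of complex I, and Ndufc2, at −0.09 ± 0.14, was level with Ndufa5 of the matrix arm. A second row of the array for Ndufa8 gave 0.17, so that its direction depends on the row.

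Factors that build complex I but do not stay in it were mixed. None of the 8 had an unadjusted p under 0.05, and after quantile normalization or cyclic loess 4 had a higher and 4 a lower CL mean. Ndufaf3 had 6.36, 6.42 and 5.94 with vehicle and 6.51, 6.81 and 6.46 with CL, the only assembly factor with all CL values higher, and a log2 fold change of 0.35 ± 0.18. Ndufaf8, a partner of Ndufaf5, had 7.68, 7.35 and 7.34 against 7.17, 7.17 and 7.22, all lower, with a log2 fold change of −0.27 ± 0.15 (limma adjusted p = 0.453). Ndufaf1 (0.44 ± 0.21) and Ndufaf6 (−0.29 ± 0.18) had the largest log2 fold changes in each direction, with overlapping groups.

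Ndufa4 was named for complex I but is known as a subunit of complex IV, and Ndufa4l2 is its hypoxia-inducible paralog. Ndufa4 had 10.96, 10.68 and 10.93 with vehicle and 10.75, 11.16 and 11.14 with CL, a log2 fold change of 0.16 ± 0.17. Ndufa4l2 had 6.93, 6.27 and 7.00 against 7.54, 6.93 and 7.02, a log2 fold change of 0.43 ± 0.24. The groups overlapped for each of the pair, and CL replicate 1 was the highest for Ndufa4l2 and the lowest CL array for Ndufa4.

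All 4 subunits of complex II had higher CL means. Sdha, the flavoprotein that oxidises succinate, had 7.89, 8.48 and 8.46 with vehicle and 8.82, 8.87 and 8.59 with CL, so that every CL array lay above every vehicle array. Its log2 fold change was 0.48 ± 0.19 (limma adjusted p = 0.289). Sdhd, a membrane anchor, had 7.72, 6.82 and 7.52 against 7.96, 7.80 and 7.79, a log2 fold change of 0.50 ± 0.23 without overlap, with vehicle replicate 2 far below the others. Sdhb, the iron-sulphur subunit, and Sdhc, the other anchor, had log2 fold changes of 0.21 ± 0.20 and 0.21 ± 0.17, and their groups overlapped. Without vehicle replicate 2 the median of complex II was 0.17.

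In complex III the log2 fold changes were higher in the core than in the small subunits, though Uqcr11 (0.32) came close to Uqcrfs1 (0.33). The difference between these groups was not tested. Uqcrc1, a core protein related to the mitochondrial processing peptidase, had 7.48, 7.81 and 7.35 with vehicle and 8.27, 7.97 and 7.90 with CL (log2 fold change 0.50 ± 0.17; limma adjusted p = 0.229). Uqcrc2, its partner, had 7.85, 8.10 and 7.88 against 8.49, 8.40 and 8.21, a log2 fold change of 0.42 ± 0.15. Uqcrfs1, the Rieske iron-sulphur protein, had 5.91, 5.99 and 5.63 against 6.12, 6.23 and 6.18, a log2 fold change of 0.33 ± 0.15. In all 3 the CL values lay above the vehicle values. Cyc1 encodes cytochrome c1, also of complex III, but does not carry the Uqcr symbol. Its levels were 7.24, 7.04 and 7.29 against 8.14, 7.92 and 8.08, a log2 fold change of 0.86 with a limma adjusted p of 0.0546. Of the small subunits, Uqcrb, which lies beside the ubiquinone site, had the lowest log2 fold change of all members, −0.31 ± 0.19. Its levels were 9.21, 9.24 and 9.09 with vehicle and 9.27, 8.76 and 8.56 with CL, and CL replicate 1 was the highest of the 6. Uqcrh, the hinge protein, had a log2 fold change of 0.00 ± 0.15, Uqcrq 0.03 ± 0.14 and Uqcr11 0.32 ± 0.18, each with overlap.

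**Figure D3:**
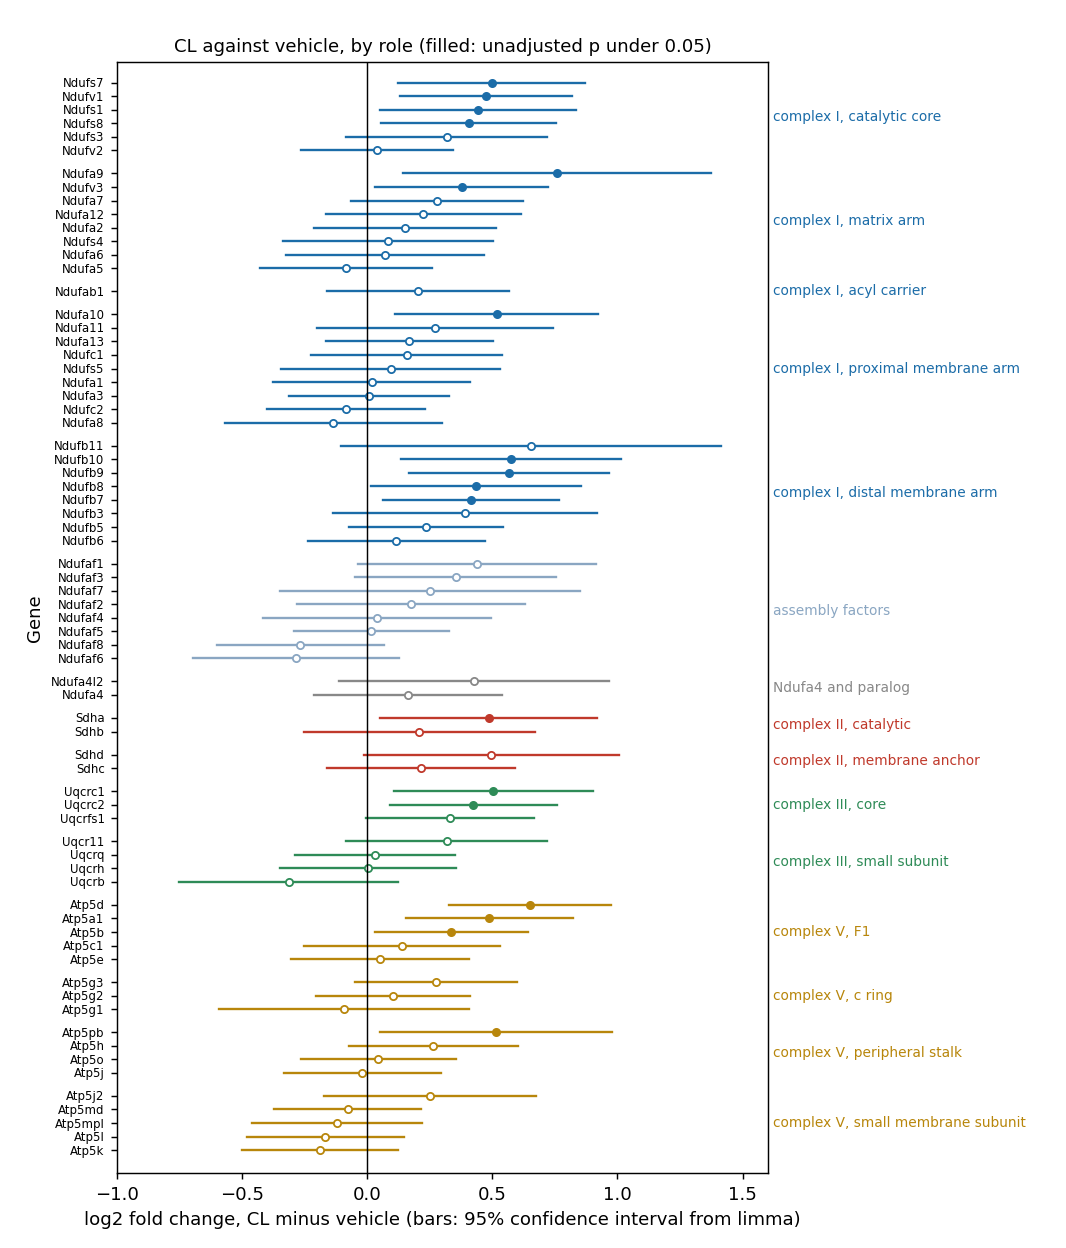
Log2 fold change (CL minus vehicle) of each member on the horizontal axis, with 95% confidence intervals from limma (n = 3 per group), genes grouped by complex and role, and filled points for an unadjusted p under 0.05. The 18 filled points all lie to the right of 0. None belongs to the small subunits of complexes III and V, the assembly factors or the c ring. The membrane anchors of complex II, the acyl carrier and the Ndufa4 pair have none either.

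Complex V held the member with the smallest adjusted p. Atp5d, the delta subunit of the central stalk, had 10.43, 10.28 and 10.17 with vehicle and 10.95, 11.05 and 10.83 with CL, with the groups well apart. Its log2 fold change was 0.65 ± 0.14, and its adjusted p in limma was 0.096, which became 0.038 when limma's variance prior was allowed to follow the level. A second row for Atp5d on the array gave a log2 fold change of 0.58, with no overlap either. The alpha and beta subunits form the catalytic hexamer. Atp5a1 (alpha) had 9.98, 9.74 and 9.74 against 10.44, 10.31 and 10.17, a log2 fold change of 0.49 ± 0.15 (limma adjusted p = 0.18). Atp5b (beta) had 10.31, 10.09 and 10.14 against 10.56, 10.51 and 10.48, a log2 fold change of 0.33 ± 0.13 (limma adjusted p = 0.298). These 3 genes of F1 did not overlap between groups, while Atp5c1 (gamma, 0.14 ± 0.17) and Atp5e (epsilon, 0.05 ± 0.16) did overlap and had smaller log2 fold changes.

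The c ring, which turns as protons pass, is made of 1 mature protein encoded by 3 genes. Atp5g3 had 9.21, 9.37 and 9.04 with vehicle and 9.46, 9.54 and 9.44 with CL, without overlap, and a log2 fold change of 0.27 ± 0.14. Atp5g2 had 10.96, 10.77 and 10.79 against 10.89, 11.02 and 10.91, a log2 fold change of 0.10 ± 0.14 with overlap. A second row for Atp5g2, at a mean level of 10.67, gave a log2 fold change of 0.23 without overlap. Whether its groups overlap thus depends on the row. Atp5g1 read 3.66, 3.53 and 3.25 against 2.93, 3.73 and 3.50, with a mean under the background level of 3.59 set by olfactory and vomeronasal receptor genes, and no fold is given for it. Atp5o, the subunit that joins the peripheral stalk to F1, was under the same level at 3.46, 3.27 and 3.50 against 3.49, 3.48 and 3.39, so its row measured little. In the rest of the peripheral stalk, Atp5pb (subunit b) had 8.21, 7.91 and 7.48 against 8.57, 8.40 and 8.18. Its log2 fold change was 0.51 ± 0.21, and vehicle replicate 1 lay just above CL replicate 3. Atp5h (subunit d) and Atp5j had log2 fold changes of 0.26 ± 0.15 and −0.02 ± 0.14.

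Subunits e and g, encoded by Atp5k and Atp5l, are known for holding ATP synthase dimers together in the cristae. Atp5k had 11.38, 11.30 and 11.33 with vehicle and 11.15, 11.01 and 11.28 with CL, lower on every CL array, though CL replicate 3 was only slightly below. Its log2 fold change was −0.19 ± 0.14 (limma adjusted p = 0.582). Atp5l had 11.71, 11.67 and 11.76 against 11.43, 11.52 and 11.69, a log2 fold change of −0.17 ± 0.14, with CL replicate 3 inside the vehicle range. Atp5mpl and Atp5md, small proteins attached to the same region, had log2 fold changes of −0.12 ± 0.15 and −0.08 ± 0.13, and Atp5j2 (subunit f) had 0.25 ± 0.19. None of these 5 differed beyond the spread between arrays by the test.

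Many of the small subunits have bright probe sets. Brightness depends on the probes as well as on the transcript, so an order of levels between genes is not an order of transcript amounts. Across the 60 structural subunits, Spearman's rho between the level and the log2 fold change was −0.25, and across all 70 members it was −0.14. Over all 22180 genes it was 0.24, but these cover an unlike range of levels. Of them 8797 lay under the background level, against 2 of the structural subunits. These are descriptions across genes measured on the same arrays, which are not independent of each other.

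**Figure D4:**
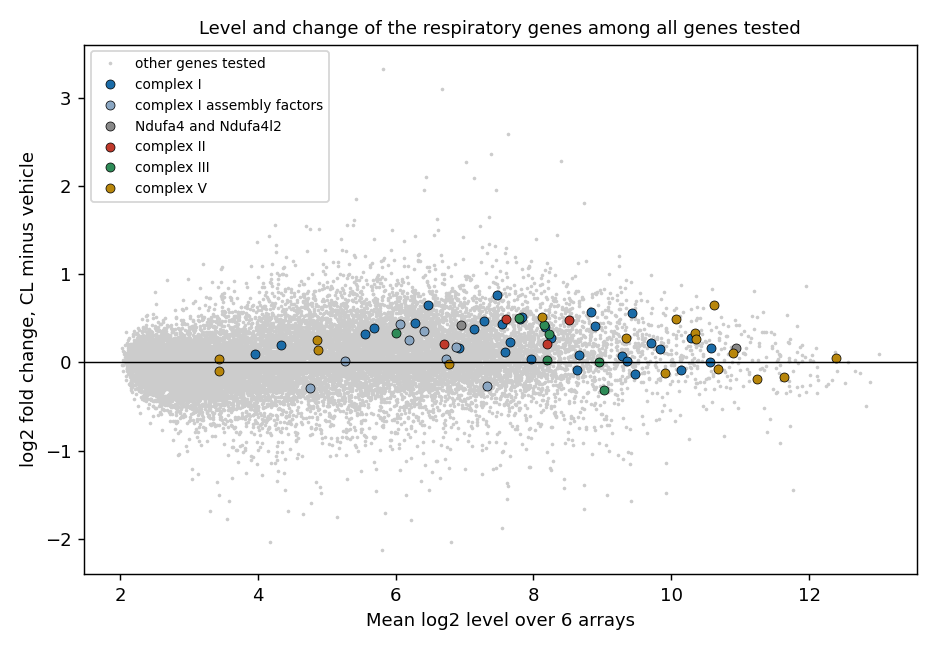
Mean log2 level over the 6 arrays (horizontal) against the log2 fold change, CL minus vehicle (vertical), with members coloured by complex and the other genes tested in grey. Most members lie between 0 and 0.76 above the zero line at middle to high levels, and the brightest complex V genes lie at or below it, Atp5e with a log2 fold change of 0.05 and Atp5l with −0.17.

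Other mitochondrial genes came from lists that hold no member of the complexes above, and their medians ran from 0.08 to 0.39. None of the genes in these lists had a limma adjusted p under 0.05. All 12 citric acid cycle enzymes had a higher CL mean, 6 (50%) with an unadjusted p under 0.05, and their median log2 fold change was 0.39. At that p, 9.40% of all genes were higher. The share was 16.5% of genes above the median level and 20.1% of those at a level of 8 or more. Cs, citrate synthase, had 8.02, 7.94 and 7.71 with vehicle and 8.63, 8.57 and 8.70 with CL, a log2 fold change of 0.74. Idh3a, a subunit of isocitrate dehydrogenase, had 5.66, 5.31 and 5.16 against 6.66, 6.16 and 5.93, a log2 fold change of 0.87. Limma adjusted p-values were 0.0753 for Cs and 0.131 for Idh3a, and neither gene overlapped between groups.

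Of 15 subunits of cytochrome c oxidase, complex IV, 13 had a higher CL mean, with a median log2 fold change of 0.22. At an unadjusted p under 0.05, 4 (26.7%) were higher. Their median level was 9.04, and of all genes at a level of 8 or more 20.1% were higher at that p. Cox4i1 had 10.03, 10.26 and 9.90 against 10.83, 10.77 and 10.48, a log2 fold change of 0.63. Cox8b, a muscle and brown fat form counted among the thermogenic markers too, had the largest log2 fold change of this list at 2.36 (limma adjusted p = 0.0844), with 6.66, 6.37 and 5.55 against 9.78, 7.83 and 8.07, the highest on CL replicate 1. Among 71 mitochondrial ribosomal proteins, 60 had a higher CL mean, and the median log2 fold change was 0.28. At an unadjusted p under 0.05, 26 (36.6%) were higher and 1 (1.41%) lower, against 9.40% and 5.38% of all genes. Of the 71, Mrps31 had the largest log2 fold change at 0.95 and Mrps18a the smallest adjusted p at 0.0502 in limma. Among 16 ubiquinone and electron carrier genes 14 had a higher CL mean (median 0.23), with Etfb at a log2 fold change of 0.62 and Cycs, cytochrome c, at −0.04. Among 13 genes of inner membrane organisation 12 did (median 0.31). Of 21 assembly factors outside the symbol rule 14 did (median 0.10), with Atpaf2, an assembly factor of F1, at 0.69. Regulators of mitochondrial biogenesis had a median of 0.08 over 16 genes, of which 1, Ppargc1b at a log2 fold change of 0.39, had an unadjusted p under 0.05.

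Cell type markers also differed between the groups. Markers of the vascular, progenitor and immune cells of an SVF were present on the vehicle arrays. The endothelial gene Cdh5 had 10.64, 11.06 and 10.60, the progenitor gene Dcn 12.06, 12.02 and 12.08, and the macrophage gene Lyz2 11.70, 11.44 and 11.63. Mature adipocyte markers were present too, with a mean level over 11 genes of 7.64 to 7.91 on vehicle and 7.51 to 8.42 on CL arrays. Of these, 7 had a higher CL mean and 1, the lipase gene Lpl, rose by the test (log2 fold change 0.84, limma adjusted p = 0.0415), and Adipoq had 6.65, 7.09 and 7.16 against 8.55, 7.72 and 8.36. In the other direction, Fabp4 had 12.31, 12.48 and 12.33 against 12.27, 11.90 and 12.16, lower on every CL array, and Cidec and Lep had log2 fold changes of −0.51 and −0.30. Thermogenic adipocyte markers, 8 of 9 with a higher CL mean, averaged 3.85 to 4.06 on vehicle and 4.23 to 5.30 on CL arrays. Ucp1 had 3.50, 3.51 and 3.35 against 6.54, 4.12 and 3.99, under the background level on all vehicle arrays and highest on CL replicate 1, the array that also held the highest value of more members than any other. Skeletal muscle markers, 8 of 10 with a higher CL mean, averaged 4.10 to 4.78 on vehicle and 4.34 to 6.02 on CL arrays, with CL replicate 3 the highest. All 9 proliferation genes had a higher CL mean (median log2 fold change 0.77), and all 10 endothelial markers a lower one (−0.61). All 8 mast cell markers had a higher CL mean (median 1.44), their mean level being 4.05 to 4.80 on vehicle and 5.59 to 6.65 on CL arrays with CL replicate 2 the highest, and Tpsb2 and Cpa3 passed the test. Pericyte and smooth muscle markers were higher in 8 of 10 cases (median 0.60), averaging 6.93 to 7.04 on vehicle and 7.30 to 7.91 on CL arrays, and Cnn1 and Acta2 passed the test. The part of these cell types in the respiratory gene values was not tested.

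Values without the arrays on which those markers stood highest are as follows. Without CL replicate 1 the members' median log2 fold change was 0.19, 7 members had an unadjusted p under 0.05 and were higher, and 21 were higher without overlap, where 17.3% of all genes were. Without CL replicate 3 the median was 0.27, with 18 members and 29 members by the same counts, where 15.8% of all genes were higher without overlap. Without CL replicate 2 the median was 0.21, with 6 and 23 members by these counts, where 14.3% of all genes were higher without overlap. The count at an unadjusted p under 0.05 was thus smaller without CL replicate 1 and without CL replicate 2. The matching share of all genes is not given here. Over all genes, 72 were called with all arrays and 0 without any single CL array. Whether the smaller counts are particular to the members or to these arrays was not tested.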

How the data were processed

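SVF RNA from gWAT of vehicle-treated and CL-treated mice, 3 biological replicates each, was measured on 6 arrays, grouped by the treatment in the labels. The deposited table holds log2 levels, and the submitters' processing notes name RMA and Affymetrix Expression Console, without versions, as the authors' tools. They were used without further scaling. Of 41345 probe sets, 23521 carried 1 gene symbol, 1820 several and 16004 none in the array annotation, and only the first kind was tested. For 1082 genes with several rows the row with the highest mean stood for the gene. Scanner files were not used here.

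CL was set against vehicle by limma 3.58.1 under R 4.3.3, by two-sided tests from lmFit and eBayes with no trend, over 22180 genes, with Benjamini-Hochberg adjustment and a threshold of 0.05, after the code was tested on simulated data. The background level, 3.59, was the 95th percentile of 1394 olfactory and vomeronasal receptor genes. Named were members called, those with an unadjusted p under 0.05, the 3 highest levels and the 3 highest and lowest fold changes of each complex, core subunits, isoforms, members under background, and leading genes of other lists, of which the cell type lists are given in part. Members and lists were chosen with earlier results of these data known. In all, 18 alternatives were tried. The labels give 8 weeks and 3 days, and the methods describe other ages and times for related experiments. The labels name biological replicates, and precision is limited by the number of arrays. No batch is given in the sources used here.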

Additional observations from a re-analysis of the deposited data

Results flagged for a closer look

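Rows of the array annotated with several symbols entered no comparison, and 8 of them name a gene of these complexes. The row shared by Ndufs5 and its pseudogene Ndufs5-ps had levels of 6.44, 6.84 and 6.84 on the vehicle arrays and 7.49, 7.27 and 7.06 on the CL arrays, higher on every CL array, with a log2 fold change of 0.57 ± 0.18 (SE, n = 3 per group). The row that names Ndufs5 alone gave 0.09 ± 0.19 at a mean level of 3.97. Which of the 2 genes the shared row reads was not tested. The remaining 7 rows had overlapping groups, with log2 fold changes from −0.44 for the row shared by Uqcrb and Gm10767 to 0.32 for a row shared by Ndufs6 and Ndufs6b.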

How the results depend on the processing

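No alternative reversed the median over all members, which was 0.13 after quantile normalization and 0.13 after cyclic loess, and 0.19 to 0.27 when each array was left out in turn. For 20 members the sign changed under at least 1 alternative. With limma's variance trend, and with the trend and robust settings, 1 member was called (Atp5d, adjusted p = 0.038 and 0.0348). Under other alternatives, by limma or Student's test, the adjusted p of Atp5d was as high as 0.314. Quantile normalization gave 8 members at an unadjusted p under 0.05 and higher and 1 lower, with 15 higher and 4 lower without overlap (9.8% and 9.3% of all genes). Cyclic loess gave 7 higher and 1 lower, with 11 higher and 4 lower without overlap (9.8% and 9.59% of all genes). Leaving out each array in turn gave 6 to 18 higher and 0 to 1 lower at an unadjusted p under 0.05 (7 higher without CL replicate 1 and 6 without CL replicate 2), and 21 to 29 higher and 2 to 7 lower without overlap (7 lower without CL replicate 1, and 4 lower without CL replicate 3 or without vehicle replicate 2), where 14.3% to 18.2% of all genes were higher and 13% to 14.6% lower without overlap. Among the structural subunits 1 was lower without overlap. The share of all genes at an unadjusted p under 0.05 is not given for these alternatives. The member counts at that p therefore cannot be set against it.

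With each array left out in turn, the median log2 fold change ran from 0.17 to 0.46 for complex II, lowest without vehicle replicate 2, and from 0.20 to 0.37 for complex III, lowest without vehicle replicate 3. It ran from 0.016 to 0.14 for complex V, lowest without vehicle replicate 2, and from 0.0032 to 0.20 for the assembly factors, lowest without vehicle replicate 2 and highest without CL replicate 3. That of the assembly factors was −0.0029 after quantile normalization and −0.0047 after cyclic loess. The cause of these shifts was not tested. The number of genes called over the whole array was 72, 53 to 177 under the other scalings, priors and filters, 0 with the Student's test of the methods (13 members at an unadjusted p under 0.05), and 0 to 31 with 1 array left out, 0 without any single CL array. Same-numbered vehicle and CL arrays deviated with correlations of −0.0046, 0.0984 and 0.0603, so the numbers were not taken as pairs. A replicate block gave 15 genes called, 0 members called and 16 members higher at an unadjusted p under 0.05. For the Student's test and the block, too, the share of all genes at that p is not given.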
